A study of Homo sapiens with 4 samples.

Results

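The ZNF genes of chromosome 19 whose smallest annotated start lay within the 4500000 bases from base 54000000 of the T2T-CHM13v2.0 assembly were followed in wild-type and MORC2 knock-out HEK293T cells. These bounds take in bands q13.41 and q13.42. The rule used only the gene symbol and the position, and it found 48 genes among the 28775 genes of the count table. The 48 genes lie between bases 54659955 (start of ZNF175) and 56659843 (end of ZNF331), and they are 48 of the 235 genes that the bounds enclose. Of the 48, 39 are protein-coding, 3 are non-coding antisense RNAs (ZNF649-AS1, ZNF350-AS1 and ZNF528-AS1), 4 are transcribed pseudogenes (ZNF137P, ZNF321P, ZNF702P and ZNF818P) and 2 are read-through transcripts that join neighbouring genes (ZNF816-ZNF321P and ZNF765-ZNF761).

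HEK293T is a transformed human embryonic kidney line. The 4 libraries of polyadenylated RNA comprised 2 MORC2 KO samples (knock-out sgRNA 1 and knock-out sgRNA 2, replicates 1 and 2) and 2 WT samples (replicates 1 and 2) without a guide. The KO samples were bulk populations electroporated with Cas9 protein and a guide, not single clones, so each can hold a mixture of edited and unedited alleles. The methods name HEK293 cells for the editing and the labels name HEK293T. The study's methods describe the WT replicates as independent and the KO samples as separate lines, each made with its own guide. Whether the WT cells had been electroporated is not stated in the sources used here. The summed counts per sample ranged from 53970043 to 64312514. MORC2 itself stood at 51.2 and 55.05 CPM (counts per 1000000 library counts, scaled with TMM factors) in KO and at 86.2 and 87.7 in WT, so the KO samples lay below the WT samples (log2 fold change -0.71, standard error 0.06). RNA left in the KO samples does not measure MORC2 protein. The study checked the knock-out in cells of both guides by western blot with a MORC2 antibody, and that blot was not used here. The 8 markers taken for HEK293T cells were all tested, with 0 called, and summed to between 810 and 837 CPM in KO and between 788 and 823 in WT. VIM, which many cell types express, made up most of this sum (554 to 584.9 CPM in each KO sample and 547.4 to 574.9 in each WT sample). NEFM was at 8.21 and 8.85 CPM in KO and 6.57 and 5.99 in WT and did not pass the test (adjusted p of 0.118 in edgeR). The 11 markers of blood, endothelial, liver, fibroblast and basal epithelial cells summed to 4.37 and 4.46 CPM in KO and to 5.43 and 4.57 in WT. PTPRC and CDH5 were at 0 counts in both WT samples.

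Zinc finger proteins of the C2H2 kind bind DNA through a row of finger repeats encoded in a single long exon. In many of them a KRAB box near the N-terminus recruits TRIM28, which brings the methyltransferase SETDB1 and with it trimethylation of histone H3 at lysine 9 (H3K9me3), a mark of silenced chromatin. Human chromosome 19 holds tandem clusters of such genes, which arose by duplication, and many of the proteins bind transposable elements. The bodies of ZNF genes themselves carry H3K9me3. MORC2 is an ATPase that acts with the HUSH complex (TASOR, MPHOSPH8 and PPHLN1) in silencing at H3K9me3-marked chromatin. The comparison asked how RNA of these genes stood when MORC2 was targeted.

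The 39 coding members could all be translated from GENCODE 29 transcripts. A KRAB box was found in 38 of them, and ZNF83 was the coding member without it. The number of C2H2 fingers ran from 7 (ZNF577, ZNF766 and ZNF701) to 26 (ZNF845), with a median of 13. The longest exon held a median of 83.4% of the exonic bases. ZNF350, also called ZBRK1, is known as a repressor that binds BRCA1, ZNF808 is known to be needed for pancreas development, and ZNF331 is an imprinted gene. Most of the other members have no well-established target.

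The promoter windows of the members shared a short sequence. RefSeq windows from 250 bases before to 50 after the start were at hand for 37 of the 48 genes on GRCh38.p14, at 35 distinct places, since each read-through gene shares its window with the gene it starts in. The run ACCCGGAAG, which holds the core CCGGAAG bound by ETS factors, was found on either strand in 20 of the 37 windows (54.05%) and in 1.17% of the 27305 windows of all genes. It was found in 4.83% of the 207 windows of the other ZNF genes of chromosome 19 and in 0 of the 94 windows of other genes between the same bounds. Both read-through genes are among the 20 and repeat the site of the gene they start in. ZNF528 and ZNF528-AS1 start head to head with 2 matches each, on opposite strands and at the same spacing. These are most likely the same 2 sites. The 20 windows are therefore not all separate promoters. The motif was chosen after looking for letters that the members' windows share, so its share in the members is a description. The core alone was in 64.86% of the members' windows and in 10.67% of all windows. Windows of 29 bases are given for 4 members with the run among the 12 of smallest p (ZNF525, ZNF320, ZNF766 and ZNF841), for a pair of expressed paralogs with the same letters (ZNF808 and ZNF611), and for 4 members with too few reads to be tested (ZNF534, ZNF578, ZNF677 and ZNF813), each read 5′ to 3′ on the strand of the gene with the run in capitals.
ZNF525, plus strand, chr19:53365707-53365735: acgcgcgcaaACCCGGAAGcagatcgcgt
ZNF320, minus strand, chr19:52897672-52897700: attggcatagACCCGGAAGcggatggcag
ZNF766, plus strand, chr19:52269579-52269607: ccgcctgcagACCCGGAAGtggatggcgt
ZNF841, minus strand, chr19:52095745-52095773: tttcctgcacACCCGGAAGcagatcgcgc
ZNF808, plus strand, chr19:52527660-52527688: attaacgcaaACCCGGAAGcggatcgggt
ZNF611, minus strand, chr19:52735024-52735052: attaacgcaaACCCGGAAGcggatcgggt
ZNF534, plus strand, chr19:52429140-52429168: tttcctgcagACCCGGAAGtcgagatcat
ZNF578, plus strand, chr19:52453505-52453533: tttcctggaaACCCGGAAGtgaatcatgg
ZNF677, minus strand, chr19:53254854-53254882: gttcctgccgACCCGGAAGcggatctcgc
ZNF813, plus strand, chr19:53467737-53467765: attcgcgaaaACCCGGAAGcggatcgcgt

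The place of the run was also shared. With the annotated start counted as 1, its first base lay at position 3 in 9 genes, at 5 in 3 genes, at 13 in 4 genes and at 15 in ZNF813. The 9 genes include ZNF765-ZNF761 and the 3 genes include ZNF816-ZNF321P, which repeat the sites of ZNF765 and ZNF816. ZNF528 and ZNF578 had another copy upstream, at -39 and -38, and ZNF677 had its copy at -49. The ZNF578 window printed above is that of its upstream copy at -38. ZNF350-AS1 and ZNF528-AS1 held it on the opposite strand. The other elements searched on both strands were the GC box GGGCGG, in 81.08% of the members' windows and 44.59% of all windows, the CCAAT box in 27.03% and 35.7%, the TATA box TATAAA in 2.7% and 11.95%, the cyclic AMP element TGACGTCA in 0 and 1.98%, and the E-box CACGTG in 2.7% and 7.43%. The CpG dinucleotides stood at a median of 0.85 of the number expected from base composition, against 0.58 over all windows.

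Genes were tested where the edgeR filter on low counts, applied to all 4 samples, passed them. It passed 33 members, 29 of them coding. The filter does not mark a gap in WT level, since the weakest tested member by WT mean, ZNF350-AS1, was at 0.128 CPM and the untested ZNF600 at 0.112. Their WT levels ran from 0.0698 to 8.20 CPM per kb of exon, a scale that allows genes of unequal length to be compared. ZNF614 was highest, at 8.27 and 8.13 CPM per kb in the WT samples, and ZNF480 came next at 7.37 and 7.30. ZNF649 (5.82 and 5.51) and ZNF616 (4.30 and 4.16) followed. These 4 genes did not overlap in their WT samples, so their order among themselves held in both. ZNF468, next by WT mean, was at 4.03 and 4.24, and in WT replicate 2 it lay above ZNF616. At the lower end, 11 of the 33 tested members had a WT mean under 5 CPM.

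The other 15 members had at most 15 counts in any sample. They were ZNF610, ZNF880, ZNF528-AS1, ZNF534, ZNF578, ZNF600, ZNF816-ZNF321P, ZNF702P, ZNF415, ZNF347, ZNF665, ZNF818P, ZNF677, ZNF765-ZNF761 and ZNF813, of which 10 are coding. Together they had 14 and 29 counts in KO and 27 and 12 in WT, so the genotypes overlapped. ZNF677 had 0 counts in all 4 samples, which allows at most 0.0556 CPM in the shallowest library (3 counts, counting error only). Of the 15, 10 lay in 2 stretches, from ZNF610 to ZNF578 with the weakly expressed ZNF528 among them, and from ZNF415 to ZNF677. The other 5 (ZNF600, ZNF816-ZNF321P, ZNF702P, ZNF765-ZNF761 and ZNF813) lay singly between tested members. Among coding members with a promoter window, 5 of the 7 untested genes held the run and 11 of the 25 tested genes did. The median of observed over expected CpG was 0.86 in the former and 0.83 in the latter.

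**Figure D1:**
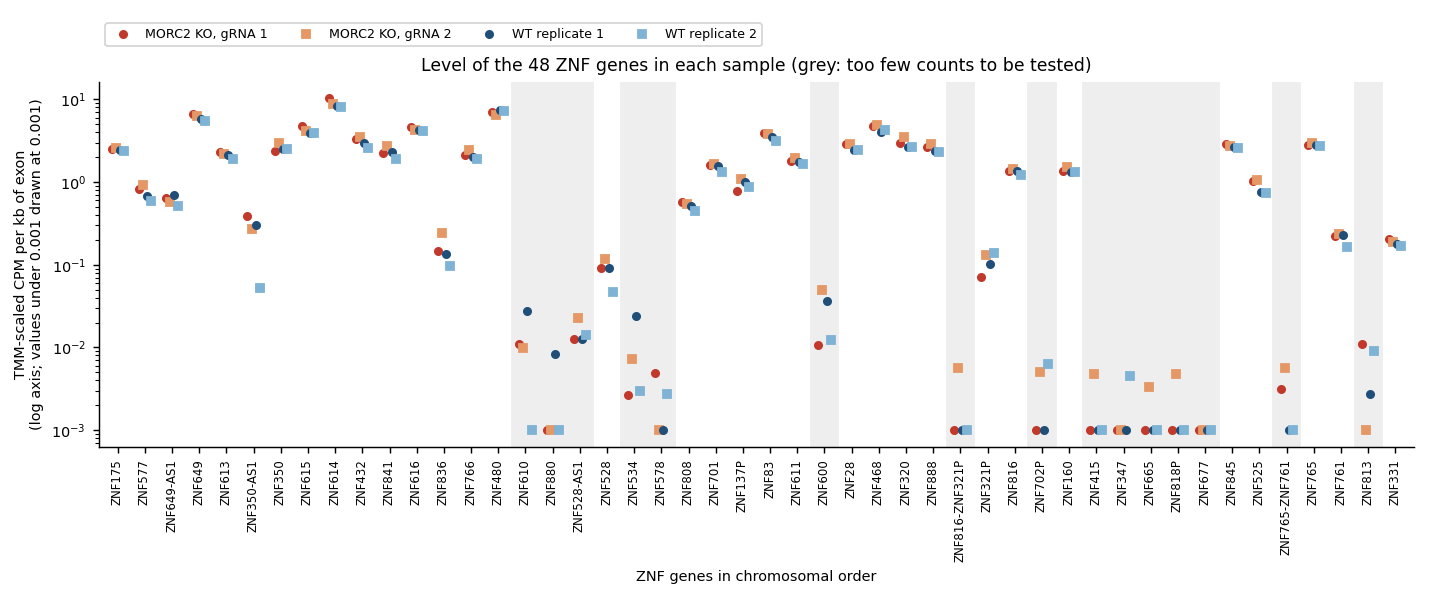
Level of each of the 48 ZNF genes in the 4 samples, in TMM-scaled CPM per kb of exon on a log axis (vertical) against their order along the chromosome (horizontal). Grey columns mark the 15 genes with too few counts to be tested, and values under 0.001 are drawn at 0.001. ZNF614 and ZNF480 were highest in WT.

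In MORC2 KO no tested member passed the test in either direction. The quasi-likelihood test of edgeR, adjusted by Benjamini and Hochberg over all 16675 genes at 0.05, called 0 of the 33 members higher and 0 lower, where 0.588% of all tested genes were called higher and 0.03% lower. At an unadjusted p under 0.05, 13 members were higher and 0 were lower, against 8.14% and 6.17% of all tested genes. DESeq2 called 0 of the 31 members to which it gave an adjusted p, where it called 0.748% of such genes higher and 0.111% lower. At an unadjusted p under 0.05 it had 8 members higher and 0 lower, against 4.49% and 4.83% of all tested genes. The log2 fold changes were small and mostly of 1 sign. They were above 0 in 29 of the 33 members, against 51.5% of all tested genes, with a median of 0.19 (1.14-fold) against 0.0054 over all tested genes. Both KO samples lay above both WT samples in 23 members and below them in 1, where this held for 24.1% and 23.4% of all tested genes. The summed level of the 48 genes was 411.0 and 415.2 CPM in KO and 374.2 and 359.8 in WT. Each KO sample gave a like shift when set against the mean of the WT samples on the log2 scale, with medians of 0.17 for gRNA 1 and 0.21 for gRNA 2.

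The absence of calls depended on the KO samples and on the filter. Without MORC2 KO replicate 1, 10 members were called higher, in a fit that leaves a lone KO sample, assumes that it varies like the WT samples and calls 1598 of all genes higher and 1936 lower. Without MORC2 KO replicate 2, ZNF614 alone was called, beside 120 genes higher and 22 lower in all. With no filter on low counts, 5 members were called (ZNF577, ZNF614, ZNF432, ZNF320 and ZNF525), beside 463 genes higher and 182 lower in all. With offsets that remove a trend on GC content and length, ZNF577 was called, beside 174 genes higher and 81 lower in all, and with offsets that remove a trend on abundance the median log2 fold change of the members was 0.12 instead of 0.19.

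**Figure D2:**
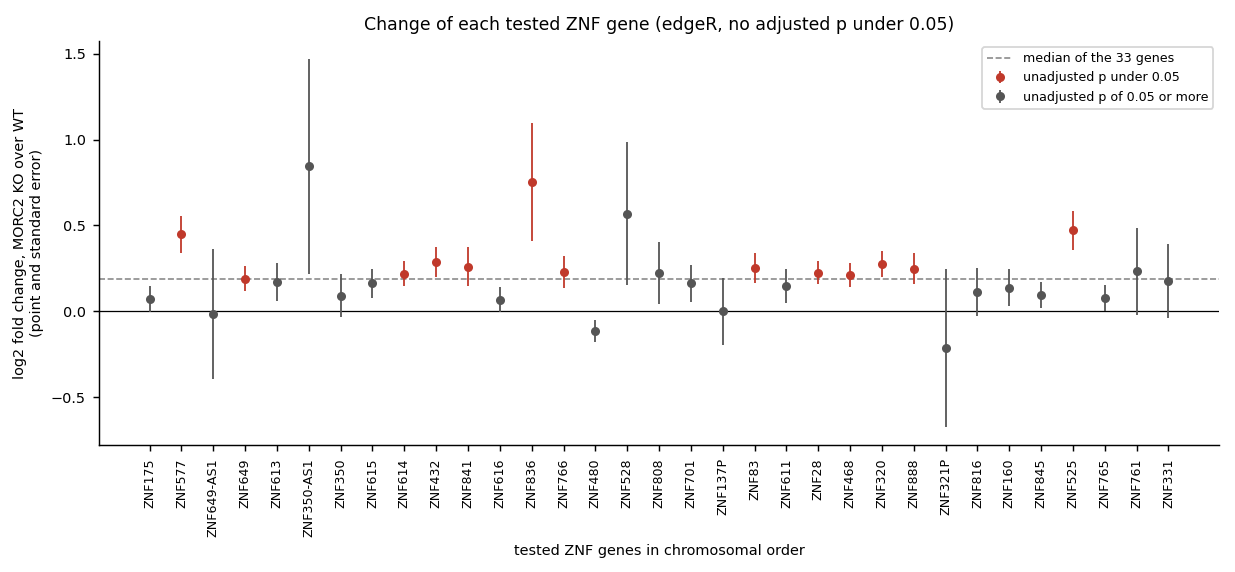
log2 fold change of MORC2 KO over WT with its standard error (vertical) for the 33 tested ZNF genes in chromosomal order (horizontal). Red points have an unadjusted p under 0.05, and the dashed line is the median of 0.19. Points lie above 0 in 29 genes, and no adjusted p was under 0.05.

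The smallest p-value belonged to ZNF525 (chr19:56445220-56466092 on T2T-CHM13v2.0, 8 fingers). It stood at 6.64 and 6.77 CPM in KO and at 4.87 and 4.79 in WT. The log2 fold change was 0.47 ± 0.11 (SE) and edgeR gave an adjusted p of 0.112. The genotypes were far apart beside the spread within each, yet the gene did not pass the adjustment. ZNF577 (chr19:54891636-54975146, 7 fingers) stood at 9.77 and 11.02 CPM in KO and at 8.18 and 7.05 in WT, which came to 0.45 ± 0.11 on the log2 scale (SE) and an adjusted p of 0.118 in edgeR. It starts head to head with the antisense gene ZNF649-AS1, and its exons share no base with another gene. ZNF320 (chr19:55943802-55982216, 11 fingers) stood at 34.97 and 40.6 CPM in KO and at 31.4 and 31.1 in WT, which came to 0.27 ± 0.07 on the log2 scale (SE) and an adjusted p of 0.156 in edgeR. For ZNF320 the KO samples differed from each other by more than the WT samples did.

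The 9 members next in order of p had log2 fold changes between 0.19 and 0.29, and in all but ZNF841 the KO samples lay above the WT samples. ZNF432 stood at 15.7 and 16.2 CPM in KO and at 13.9 and 12.3 in WT. ZNF28 stood at 23.2 and 23.2 CPM in KO and at 19.76 and 19.95 in WT. ZNF614, the most highly expressed member, stood at 47.4 and 41.0 CPM in KO and at 38.3 and 37.6 in WT. In ZNF614 the gRNA 1 sample was the higher of the KO samples. ZNF468 stood at 22.6 and 23.2 CPM in KO and at 19.2 and 20.3 in WT. ZNF83, the coding member without a KRAB box, stood at 13.6 and 13.2 CPM in KO and at 11.8 and 10.6 in WT. ZNF888 stood at 11.8 and 13.03 CPM in KO and at 10.5 and 10.4 in WT. ZNF888 also had the largest share of read-length stretches found in other genes (9.42% of its 65-base windows), and reads that map to several places were counted. ZNF649 stood at 21.3 and 20.01 CPM in KO and at 18.6 and 17.6 in WT. ZNF766 stood at 13.45 and 15.3 CPM in KO and at 12.8 and 11.8 in WT. ZNF841 stood at 12.3 and 14.9 CPM in KO and at 12.4 and 10.3 in WT. In ZNF841 the genotypes overlapped, since the gRNA 1 sample lay just under WT replicate 1. The thirteenth member with an unadjusted p under 0.05 was ZNF836, with 36 and 66 counts in KO and 33 and 21 in WT and a log2 fold change of 0.75 (standard error 0.34). ZNF836 falls outside the rule for the named genes and was chosen after its values were seen.

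**Figure D3:**
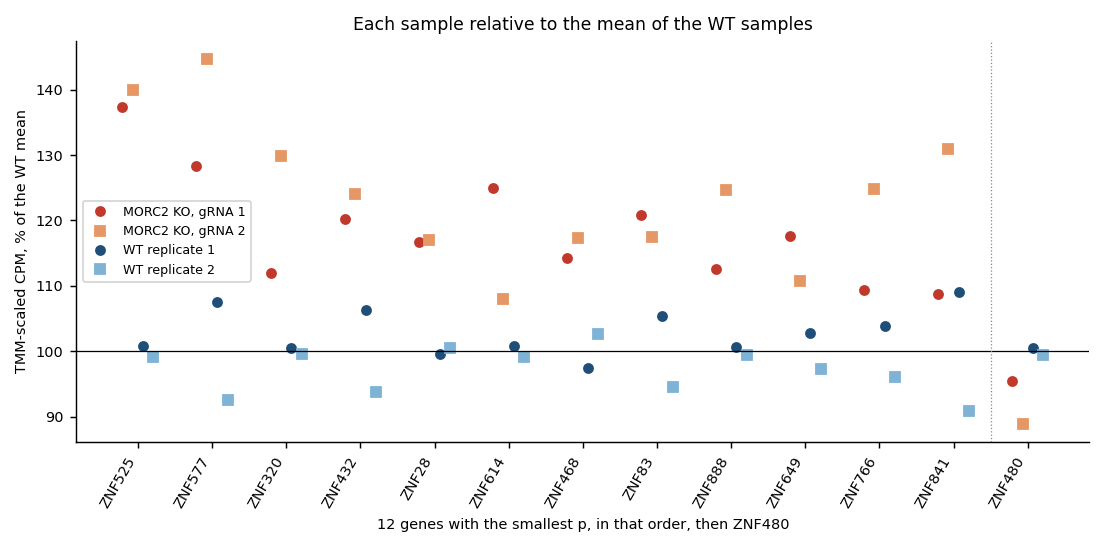
TMM-scaled CPM of each sample as a percentage of the mean of the WT samples (vertical) for the 12 ZNF genes of smallest p, in that order, and for ZNF480 (horizontal). KO samples lie above the WT samples in 11 of the 12 genes, overlap them in ZNF841 and lie below them in ZNF480.

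ZNF480 lay on the other side. The gene, second in level in WT, stood at 33.3 and 31.1 CPM in KO and at 35.1 and 34.8 in WT, with both KO samples below both WT samples. On the log2 scale the difference was -0.12 ± 0.06 (SE), with an adjusted p of 0.42 in edgeR, so it did not pass the test. The difference kept this sign with each sample left out, between -0.17 and -0.07. Its chromosomal neighbour ZNF766 had a log2 fold change of 0.23. ZNF616, the fourth in level by WT mean, stood at 20.4 and 19.1 CPM in KO and at 19.1 and 18.5 in WT, and the genotypes overlapped.

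The members that are not protein-coding were weak and imprecise. ZNF137P stood at 1.92 and 2.68 CPM in KO and at 2.47 and 2.14 in WT, ZNF649-AS1 had 22 and 22 counts in KO and 24 and 16 in WT, and ZNF321P had 10 and 20 counts in KO and 14 and 17 in WT. In these genes the genotypes overlapped, and the sign of the log2 fold change turned under some of the alternative settings. ZNF350-AS1 had 17 and 13 counts in KO and 13 and 2 in WT, and its log2 fold change of 0.84 had a standard error of 0.63. ZNF528-AS1 had 1 and 2 counts in KO and 1 and 1 in WT. The read-through gene ZNF765-ZNF761 had 1 and 2 counts in KO and 0 and 0 in WT. ZNF816-ZNF321P, ZNF702P and ZNF818P had at most 1 count in any sample. Read pairs that overlap more than 1 gene were left out by the counting, and the read-through genes share 100% of their exonic bases with other genes, ZNF321P 97.7% and ZNF761 85.1%, so these values understate their RNA.

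Features of the members were set beside the log2 fold change as a description, and none of these relations was tested. Across the 33 tested genes, Spearman's rho with the log2 fold change was -0.11 for mean level, -0.01 for GC content of the transcript, 0.19 for exonic length and -0.04 for position. It was 0.05 for the number of fingers over 29 coding genes and 0.03 for promoter CpG content over 27 genes. All points share the same 4 libraries. The median log2 fold change was 0.22 in the 12 tested members with the run in the promoter window and 0.18 in the 15 with a window but without it. At an unadjusted p under 0.05 in edgeR, 4 of the 12 and 6 of the 15 were higher. The median was 0.18 in the 15 coding members with up to 13 fingers and 0.23 in the 14 with more. Genes with no exonic base in common with another gene had a median of 0.22 (25 genes), against 0.10 in the 8 with some. Divided where the gap between neighbouring members exceeds 75 kb, the stretch from ZNF577 to ZNF836 had a median of 0.20 over 12 tested genes, that from ZNF766 to ZNF677 of 0.21 over 15, and that from ZNF845 to ZNF331 of 0.18 over 5. ZNF175 lies apart, with a log2 fold change of 0.07.

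The medians of other ZNF genes also lay above 0, and that of the other genes of the same region lay near 0. Among 195 tested ZNF genes elsewhere on chromosome 19 the median log2 fold change was 0.16 and 173 were above 0. Of these 195, edgeR called 7 higher and 0 lower, where it called 0.588% of all tested genes higher and 0.03% lower. At an unadjusted p under 0.05 in edgeR, 66 were higher and 0 lower, against 8.14% and 6.17% of all tested genes. Both KO samples lay above both WT samples in 116 and below them in 9, against 24.1% and 23.4% of all tested genes. Among 274 tested ZNF genes of other chromosomes the median was 0.08, with 207 above 0 and 7 called higher. Among the 53 tested genes without a ZNF symbol between the same bounds the median was 0.0044, with 27 above 0, 0 called, and 6 higher and 4 lower at an unadjusted p under 0.05. With offsets for abundance the medians of the 4 sets, in the same order with the members first, were 0.12, 0.11, 0.05 and -0.02. The median GC content of the transcript was 41.5% in the tested members, 48.7% over all tested genes and 59.4% in the 53 genes without a ZNF symbol. Median exonic length was 4678 bases in the members and 2380 in those 53 genes. With offsets for GC content and length the members' median was 0.15, where that of all tested genes was -0.03. The other sets, in the order above, then had medians of 0.12, 0.03 and -0.05. The part of GC content and abundance in the shift was not tested further, and differences between the sets were not tested.

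**Figure D4:**
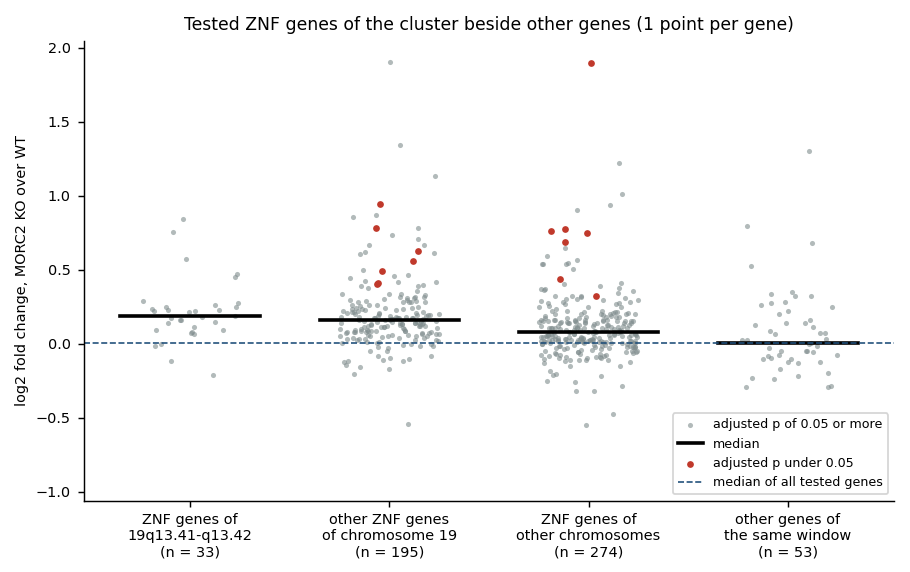
log2 fold change of MORC2 KO over WT (vertical), 1 point per tested gene, for the ZNF genes of the cluster and for 3 other sets (horizontal), with the median of each set as a bar. Medians were 0.19, 0.16, 0.08 and 0.0044 from left to right, and red points, which have an adjusted p under 0.05, occur only among the ZNF genes outside the cluster.

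The partners through which KRAB proteins silence, and the HUSH complex, were followed with a list of 25 genes, all of which were tested. edgeR called 1 of them higher and 0 lower. The called gene was TASOR, the scaffold of HUSH, at 211.3 and 236 CPM in KO and 133.5 and 126.4 in WT, or 0.78 ± 0.07 on the log2 scale (SE). The other 24, among them TRIM28 and SETDB1, had log2 fold changes between -0.17 and 0.26. The smallest adjusted p of these in edgeR was 0.147, that of ZNF274, a KRAB zinc finger protein known to bind the 3′ ends of ZNF genes, at 55.6 and 56.2 CPM in KO and 48.9 and 47.1 in WT. ZNF274 was singled out after its values were seen. The bounds also enclose gene families of white blood cells (SIGLEC, LILR, KIR, FPR and related families), picked here by the start of the symbol. Of these 36 genes 3 were tested (SIGLEC10, its antisense gene SIGLEC10-AS1 and LILRB3) and 23 had 0 counts in all samples. The 36 genes summed to 2.36 and 3.41 CPM in KO and to 2.96 and 2.33 in WT.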

How the data were processed

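The authors aligned read pairs of 65 bases to T2T-CHM13v2.0 with Subread 2.0.6 and deposited unnormalized counts of read pairs per RefSeq gene from featureCounts 2.0.6. The command in the file header counts multi-mapping reads, names no strand option and leaves out pairs that overlap several genes. Reads of near-identical paralogs, of overlapping genes and of antisense partners are therefore uncertain. Symbols were matched by Entrez identifier for 28763 of 28775 genes. The table held 0 columns beyond the 4 libraries.

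Following the study's methods, genes were filtered with filterByExpr (16675 left), scaled with TMM factors (0.986 to 1.03) and compared on genotype with edgeR's quasi-likelihood test and Benjamini-Hochberg adjustment at 0.05, run under R 4.3.3 (edgeR 4.0.16, legacy setting). A standard error is the absolute log2 fold change over the square root of the F statistic. The biological coefficient of variation was 5.33%, and standard errors in the members ran from 0.064 to 0.63. The 4 largest were those of genes with 2 to 31 counts a sample, where depth limits the precision. Replicates differed by more than counting noise (chi-square per degree of freedom 16.8 in KO and 6.56 in WT). The scripts were tested on simulated data.

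GC content, fingers, KRAB boxes and shared 65-base stretches came from GENCODE 29 transcripts on GRCh38, found for 46 of 48 members, and promoter windows from RefSeq on GRCh38.p14. No coordinates were converted. The members and gene lists were chosen with earlier results of these data known. The genes named were the 12 of smallest p, the 4 of lowest log2 fold change, the 4 of highest WT level and those that are not protein-coding. Alternatives were RLE scaling, library size alone, DESeq2 1.42.0, the newer edgeR form, other filters and an adjusted p under 0.1, offsets on abundance or GC content and length (loess span 0.3), the replicate number in the model, and leaving out each sample. Leaving out a sample leaves a genotype with a lone sample, whose variation is taken from the other genotype.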

Additional observations from a re-analysis of the deposited data

How the results depend on the processing

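The number of members called lower was 0 under every alternative tried, and the MORC2 log2 fold change stayed between -0.76 and -0.66. The number called higher, 0 in the reported comparison, was 5 with no filter on low counts, 1 with GC content and length offsets and 0 to 10 with each sample left out, and 0 under the scalings, the stricter filter, the newer edgeR form, DESeq2, abundance offsets and an adjusted p under 0.1. The median log2 fold change of the members, 0.19, was 0.23 with library size alone, 0.12 with abundance offsets and 0.15 with GC content and length offsets. The median of all tested genes moved as well, from 0.0054 to 0.045 with library size alone and -0.033 with GC content and length offsets. With abundance offsets the median of all tested genes was -0.0054. The members' median was 0.22 over members with no shared exonic base and 0.14 to 0.23 with each sample left out. The cause of these differences was not tested. With the replicate number as a block 1 member (ZNF577) was called, beside 237 genes higher and 42 lower in all (98 and 5 in the reported comparison), and 1 with the block and GC content and length offsets, beside 186 and 62, where the members' median was 0.155. Deviations of same-numbered samples correlated at -0.124, so the numbers were not taken as pairs. With the pairing crossed, which was added after seeing the data, 10 members were called higher and 0 lower, beside 903 and 809 of all 16675 genes. The sign turned in genes near 0: ZNF649-AS1 was at 0.0233 with library size alone, and ZNF137P at 0.0407 with library size alone, 0.0015 in the newer edgeR form, 0.0012 with no filter and 0.0014 with at least 10 counts in every sample. With samples left out, ZNF649-AS1 ran from -0.20 to 0.22, ZNF137P from -0.26 to 0.21 and ZNF321P from -0.71 to 0.13.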
